A study of Homo sapiens with 10 samples.

Results

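Olfactory receptor (OR) genes encode the odorant-binding G protein-coupled receptors of olfactory sensory neurons. They were taken here as the protein-coding genes of chromosome 11 whose symbol is OR, a number, letters and a number, as OR51B5. On hg38 with GENCODE release 44 the rule found 172 genes among the 1317 protein-coding genes of the chromosome, of 20046 in the annotation. The other 1145 genes of the chromosome served for comparison, and 6 of them are OR genes whose symbol ends in P. Peaks come from chromatin immunoprecipitation and sequencing in HEK293T cells, an established human embryonic kidney line, and each antibody and condition has a single library. The conditions were a non-targeting shRNA (CT), knockdown of CGGBP1 by shRNA lentiviruses (KD) and overexpression of CGGBP1 from a construct (OE). CTCF was mapped in all 3 conditions, the histone marks H3K4me3, H3K9me3 and H3K27me3 in CT and KD, and an input library had no antibody. Cells that received an shRNA were kept under puromycin selection, and the cells behind the input are not named. The lists hold only the positions of peaks. Signal per peak is therefore unknown, and no test between conditions could be made. The study's supplement gives the mapped reads of the CTCF and mark libraries, but peak counts were not adjusted for depth. Every interval given below is an exact 95% interval that covers the counting of peaks or genes only.

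In an olfactory neuron 1 OR allele is expressed and the rest are silenced. Class I receptors, the fish-like families OR51, OR52 and OR56, lie together on the short arm of chromosome 11 around the β-globin genes, and class II receptors are spread over many clusters. CTCF is a zinc finger protein that binds an oriented sequence motif and holds chromatin loops, CGGBP1 is a protein that binds CGG-rich DNA, H3K4me3 marks active promoters, and H3K9me3 and H3K27me3 mark silenced chromatin.

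The 172 genes fell into 11 families, with 55 genes of class I and 117 of class II. OR5 with 35, OR52 with 27 and OR4 with 26 genes were the largest families. The coding sequence measured between 906 and 1005 bp with a median of 942 bp, and OR10AG1 was the only member with its coding sequence split between exons. Neighbours more than 1 Mb apart were put in different clusters, which gave 7. Cluster 1 ran from OR52B4 to OR10A3 with 67 genes, cluster 2 from OR4B1 to OR4A47 with 7, cluster 3 from OR4C13 to OR4C45 with 3, and cluster 4 from OR4C46 to OR5AK2 with 51. Cluster 5 ran from OR6Q1 to OR10V1 with 21 genes, OR2AT4 stood alone as cluster 6, and cluster 7 ran from OR6X1 to OR8A1 with 22. Each gene was given a window of its coding span and 10 kb on each side. Merged OR windows covered 3.12 Mb and windows of the other genes 61.9 Mb without the bases shared with OR windows. Windows of neighbouring receptors overlap, so that 1 peak can belong to several genes.

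The CTCF sites under the peaks carry the main pattern, and the ones bound in KD and OE are therefore shown first. A matrix of 14 positions, whose most frequent bases are CCACCAGGGGGCAC, was learned from repeat-masked CT peaks of the whole genome that overlapped KD and OE peaks. In OR windows, 7 CTCF loci with a peak in CT, KD and OE held a site of this matrix. Each line names the nearest OR gene, the hg38 position and strand of the site, and the site in capitals with 8 bases on each side, read along its own strand.
OR52A5, chr11:5124243-5124256, plus strand: tagtatggCCAGGAGATGGCAGtgttgaag
OR51V1, chr11:5204966-5204979, plus strand: tctggacaCCACTAGGGGTCAGaagtagtt
OR51M1, chr11:5380930-5380943, minus strand: caatgtagCCACCAGGGGGAGCattcagcc
OR4S1, chr11:48307961-48307974, plus strand: ccattttgCCGCTAGAGGGAGCcaagtttg
OR5B21, chr11:58513936-58513949, minus strand: tgggatagCCTCAAGATGGCAGcattaact
OR5A2, chr11:59430109-59430122, minus strand: gcatatttCCACTAGGTGGCAGcaacattc
OR10D3, chr11:124195311-124195324, minus strand: tcctatgtCCATCAGGGGGCGAtagagcac
Another 10 loci had overlapping peaks in KD and OE and none in CT, and all 10 held a site. Around other genes a site was likewise present in 254 of 268 loci of KD and OE (94.8%), and in 443 of 461 loci of all 3 conditions (96.1%), against 7 of 10 in OR windows (70.0%, 34.8 to 93.3).
OR52K1, chr11:4493429-4493442, minus strand: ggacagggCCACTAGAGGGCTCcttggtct
OR52M1, chr11:4539808-4539821, minus strand: aacactgtCCAGGAGAGGGCACcctggccc
OR51D1, chr11:4637071-4637084, plus strand: ctgtgcgaCCACAAGGTGGCAGcatgaaga
OR51F2, chr11:4826677-4826690, minus strand: aagatttgTCAGTAGAGGGTAGtggaggca
OR51L1, chr11:5004626-5004639, minus strand: aaacttggCCAGCAGAGGGTGCcgcaggga
OR51B4, chr11:5291435-5291448, minus strand: tgttatgaCCACTAGAGGGAAGaagatacc
OR52E4, chr11:5891400-5891413, minus strand: tatttttaCCACTAGATGTCAGtcatgctc
OR52L1, chr11:5992815-5992828, plus strand: gagcttctCCACTAGGTGGAGCgaagcttc
OR8B3, chr11:124402502-124402515, plus strand: cttatcctCCACCAGGGGGTGCtggtgaca
OR8B4, chr11:124415535-124415548, plus strand: ttaagtagCCACTAGGTTGTGCtggtgatt
Sites of the first set matched between 9 and 12 of the 14 most frequent bases with a median score of 17.3 (log2 odds), and sites of the second set between 8 and 12 with a median score of 18.1. The sets thus overlapped in how closely they matched the matrix. Sites pointed both ways, with 3 on the plus and 4 on the minus strand in the first set and 4 and 6 in the second.

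OR windows held fewer CTCF peaks than the windows of other genes in all 3 conditions. In CT they held 30 peaks or 9.60 per Mb against 14.7 per Mb around other genes, a ratio of 0.655 (interval 0.440 to 0.942). In KD there were 28 peaks, 8.96 per Mb against 17.3, and the ratio was 0.518 (0.343 to 0.753). In OE there were 23 peaks, 7.36 per Mb against 17.4, and the ratio was 0.423 (0.267 to 0.638). The OR count was thus highest in CT, whereas for CT, KD and OE in turn the other windows held 907, 1071 and 1077 peaks. The 3 intervals of the ratio overlap, so that a difference between the conditions was not shown.

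**Figure D1:**
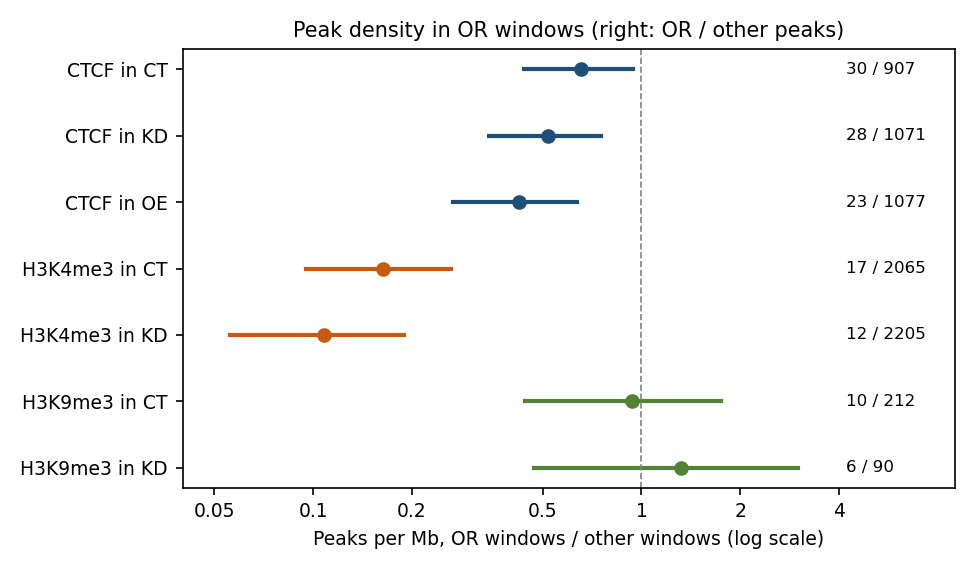
Ratio of peaks per Mb in OR windows to peaks per Mb in windows of other chromosome 11 genes (x axis, log scale) for 7 peak lists (y axis), with points for the ratio, bars for the exact 95% interval and the numbers of peaks at the right. The CTCF ratios lie between 0.423 and 0.655, the H3K4me3 ratios at 0.163 and 0.108, and the H3K9me3 intervals include 1.

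Counted by gene, 30 of 172 OR genes (17.4%, 12.1 to 24) had a CTCF peak in the window in CT, against 51.7% of other genes and 47.2% of all protein-coding genes of the chromosome. In KD the OR count was 27 (15.7%), against 63.0% of other genes and 56.8% of all. In OE it was 24 (14.0%), against 62.2% of other genes and 55.9% of all. At least 1 CTCF peak over the 3 conditions was found for 44 OR genes (25.6%, 19.2 to 32.8), where 68.9% of all genes had one. A peak in each of the 3 conditions was found for 12 OR genes (6.98%), where 38.0% of all genes had that. No peak of any of the 9 lists of CTCF and marks lay in the windows of 117 OR genes (68.0%, 60.5 to 74.9), against 100 of 1145 other genes (8.73%) and 16.5% of all. The count depends on the 10 kb reach. With 25 kb on each side a CTCF peak of CT was near 40.1% of the OR genes and an H3K4me3 peak of CT near 26.7%.

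**Figure D2:**
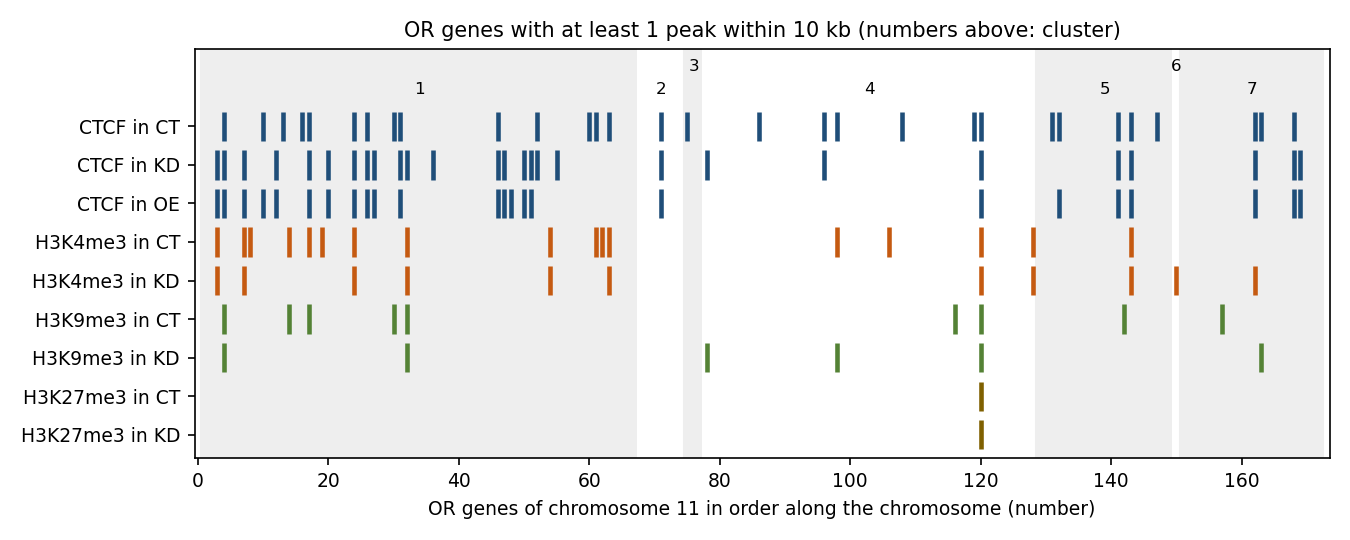
The 172 OR genes in their order along chromosome 11 (x axis, number) and the 9 peak lists (y axis), with a tick where the gene has at least 1 peak within 10 kb of its coding span and grey or white bands for clusters 1 to 7. CTCF ticks in KD and OE are densest in cluster 1, and cluster 4 has 51 genes with 1 CTCF tick in OE.

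Other genes have longer coding spans, with a median of 13248 bp against 942 bp, and hence larger windows, and a CTCF peak of CT lay within the coding span itself of 322 other genes (28.1%). In windows of a fixed 20 kb the CTCF ratio of OR to other genes was 0.515 (0.334 to 0.762) in CT, 0.396 (0.258 to 0.584) in KD and 0.332 (0.206 to 0.510) in OE. Distances were also measured from the middle of the coding span, a choice made after seeing the data. The median OR gene was 33.0 kb from a CTCF peak of CT, 39.3 kb from one of KD and 40.4 kb from one of OE. For other genes the medians were 19.7, 15.4 and 15.4 kb. From the edge of the coding span, where longer spans bring peaks nearer, the medians were 32.5, 38.9 and 39.9 kb for OR genes and 9.12, 3.72 and 3.91 kb for other genes. With either measure the median distance of other genes was shorter in KD and OE than in CT, and that of OR genes was longer.

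**Figure D3:**
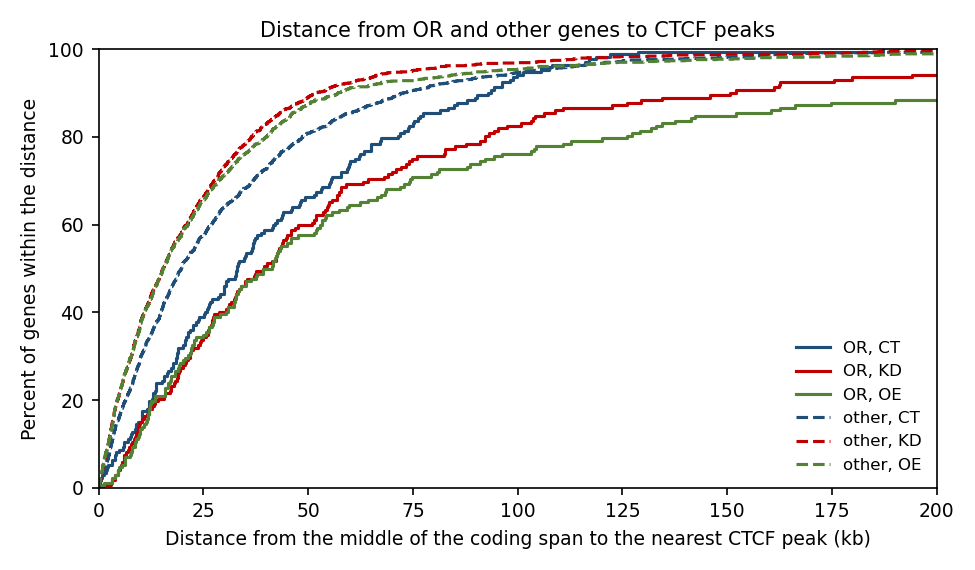
Percent of genes (y axis) for which the middle of the coding span lies within a given distance of the nearest CTCF peak (x axis, kb), for 172 OR genes (solid lines) and 1145 other genes (broken lines) in CT, KD and OE. The median distances are 33.0 to 40.4 kb for the solid lines and 15.4 to 19.7 kb for the broken lines.

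Base composition differed between the windows. OR windows had 37.5% GC against 43.2% in other windows, and 43.2 strict CTCF sites per Mb (p below 1e-05 per position) against 108 per Mb. The shares of bases in 24-mers that occur at least 10 times in hg38, counted as repeated, were 18.7% and 19.0%. The part of GC content was examined by giving each gene a fixed window of 20 kb and grouping genes by its GC percent. Below 36% GC, 10.9% of 46 OR genes had a CTCF peak in CT against 28% of 50 other genes. From 36 to 38% the shares were 13.3% of 60 and 30.3% of 99 genes. From 38 to 40% they were 23.9% of 46 and 18.7% of 123 genes. In that last group KD gave 19.6% and 21.1%, and OE 21.7% and 20.3%, so that the shares lay close together at this composition, with intervals that overlap. From 40 to 42% the OR shares were again lower, with 7.69% of 13 against 23.5% of 115 genes in CT, 15.4% against 22.6% in KD and 15.4% against 26.1% in OE. At 42% and above they were 14.3% of 7 against 32.7% of 758 genes in CT, 42.9% against 44.9% in KD and 28.6% against 44.7% in OE. The OR share was thus lower in 4 of the 5 groups in CT and in OE and in all 5 in KD. The intervals of OR and other genes overlapped in every group in CT and in KD. In OE they overlapped in every group but that below 36% GC (0.531 to 14.8 against 16.2 to 42.5). For H3K4me3 in CT the OR shares were 8.70%, 8.33% and 8.70% in the 3 groups below 40% GC, and those of other genes 24%, 32.3% and 28.5%. In CT as in KD the H3K4me3 shares were lower for OR genes in each of the 5 GC groups, though the intervals overlapped in some of them. Against the 317 other genes with a window GC between 34.0 and 41.3%, the 5th to the 95th percentile of OR windows, the CTCF ratio was 0.742 (0.494 to 1.08) in CT, 0.725 (0.475 to 1.07) in KD and 0.563 (0.352 to 0.858) in OE. The intervals of CT and KD then include 1.

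**Figure D4:**
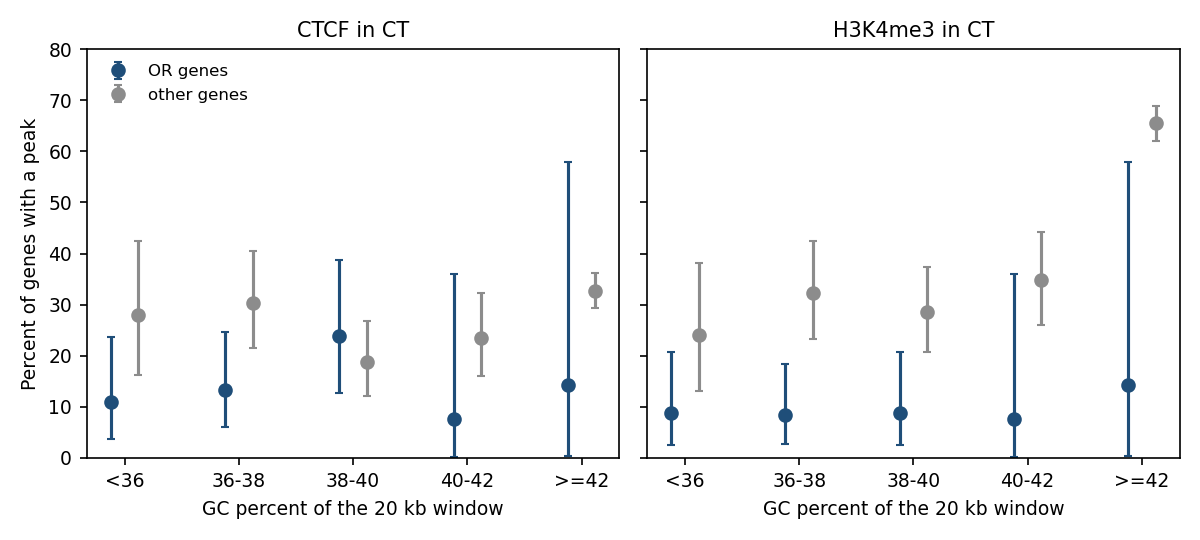
Percent of genes with a peak in a fixed 20 kb window (y axis) by the GC percent of the window (x axis) for CTCF in CT (left) and H3K4me3 in CT (right), with OR genes in blue, other genes in grey and exact 95% intervals as bars. For CTCF OR genes are higher in the group from 38 to 40% GC (23.9% and 18.7%) and lower in the other 4, with overlapping intervals in every group. For H3K4me3 OR genes are lower in every group, and the intervals overlap in some of them.

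Most CTCF peaks of CT at OR genes had no counterpart in KD or OE. Of 30 CT peaks in OR windows 11 overlapped a KD peak (36.7%, 19.9 to 56.1), where 55.3% of CT peaks in all gene windows did. With OE the overlap was 10 of 30 (33.3%), against 52.9% in all gene windows. More of the KD and OE peaks overlapped each other. Of 28 KD peaks 20 overlapped an OE peak (71.4%), and of 23 OE peaks 20 overlapped a KD peak (87.0%), against 68.2% in all gene windows for either direction. In the reverse directions 11 of 28 KD peaks (39.3%) and 10 of 23 OE peaks (43.5%) were found in CT, against 47.2% and 45.2% in all gene windows. By gene, 14 receptors had a CTCF peak in both CT and KD, 16 in CT alone and 13 in KD alone. Genes of the chromosome with a peak in CT and none in KD made up 6.68%, and those with a peak in KD and none in CT 16.2%. Among other genes the gains outnumbered the losses, with 201 in KD alone and 72 in CT alone. From CT to OE the OR genes gave 14 with a peak in both, 16 in CT alone and 10 in OE alone, where 6.91% of all genes had a peak in CT and none in OE and 15.6% the opposite.

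The peaks seen in CT alone mostly lacked a CTCF site, around OR genes as around other genes. A site of the matrix lay in 9 of 30 CT peaks in OR windows (30.0%, 14.7 to 49.4), where 60.3% of CT peaks in all gene windows held one. In KD 21 of 28 OR peaks held a site (75%, 55.1 to 89.3), against 83.2% in all gene windows. In OE 17 of 23 did (73.9%), against 73.3%. Overlapping peaks of the 3 conditions were merged into 50 loci. A peak in CT alone made up 19 loci, of which 18 had no site (94.7%), against 305 of 374 such loci around other genes (81.6%). KD and OE together made up 10 loci, all with a site, where around other genes 254 of 268 had one. CT, KD and OE together made up 10 loci, 7 with a site, where around other genes 443 of 461 had one. A further 7 loci were seen in KD alone with 3 sites, 3 in OE alone with no site, and 1 in CT and KD with a site, where around other genes 162 of 295 loci in KD alone and 78 of 321 in OE alone held one. Around other genes 20.9% of 1792 loci were in CT alone, against 38.0% (24.7 to 52.8) around OR genes, and 25.7% were in all 3 conditions, against 10 of 50 loci around OR genes. The matrix was learned from peaks shared by the 3 conditions, which bears on the share of sites in shared loci. At the threshold of these shares, p below 0.0001, OR windows held 340 sites per Mb and other windows 751. The part of this density in the shares of peaks and loci with a site was not tested.

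**Figure D5:**
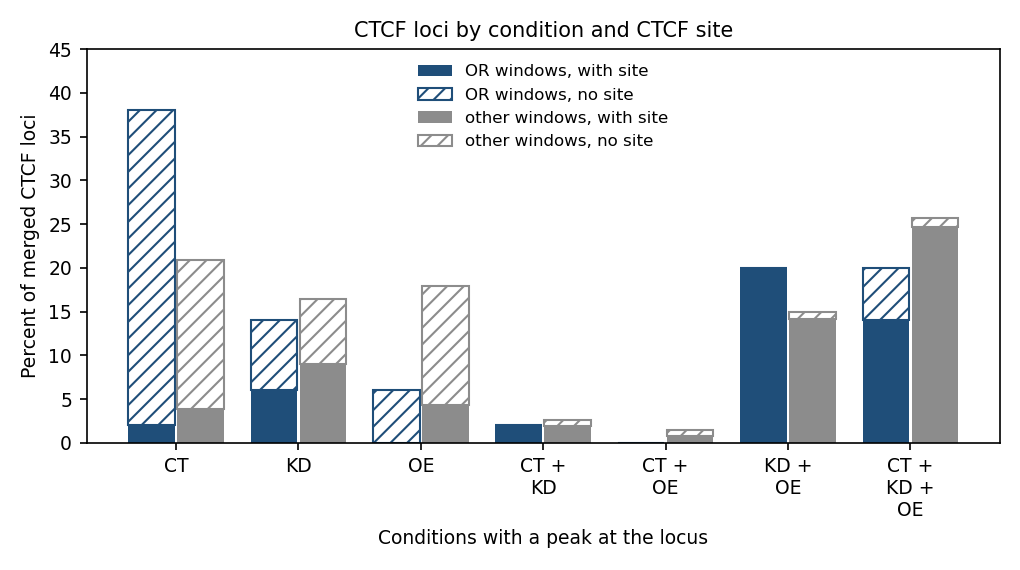
Percent of merged CTCF loci (y axis) by the conditions with a peak (x axis) in OR windows (blue, 50 loci) and other windows (grey, 1792 loci), filled for loci with a CTCF site and hatched for loci with none. The tallest OR bar is CT alone at 38.0%, almost all of it hatched, and the OR bar for KD and OE is filled throughout.

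Seen from the sites, 135 strict sites lay in OR windows. A CT peak lay over 7 of them (5.19%, 2.11 to 10.4), a KD peak over 17 (12.6%, 7.51 to 19.4) and an OE peak over 15 (11.1%). Around other genes the shares were 7.10%, 11.5% and 10.1%. The interval for OR sites included the value of the other sites in each condition. The p thresholds of the deposited lists differ between conditions (0.0025 for CT and KD and 0.005 for OE in the labels). The lists were not matched for depth and each condition has a single library, so that the condition and the library cannot be told apart.

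The 3 loci shared by all conditions without a site were fully covered by repeated 24-mers. They lay 2704 bp from OR52M1, 9936 bp from OR51G1 and 7484 bp from OR5M11. The locus at OR52M1 also overlapped H3K9me3 peaks of CT and KD, and that at OR51G1 H3K4me3 and H3K9me3 peaks of CT. The locus at OR5M11, chr11:56550741-56551173, also overlapped the input peak and a peak of H3K4me3, H3K9me3 and H3K27me3 in CT and in KD. It was the sole place in OR windows with an input peak, where 0.911% of all protein-coding genes had one. Reads of repeats and of near-identical receptor copies can be placed at more than 1 position, and the part of this in the peaks was not tested.

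Overlap with the coding span was found for OR51V1, OR5I1 and OR9Q1, all 3 in CT alone and with no site, where 37.1% of all coding spans of the chromosome were overlapped in at least 1 condition. The short spans of receptors bear on that share, since per base the CT density over their coding spans was 1.41 times that of other coding spans (0.291 to 4.15), with 3 peaks in CT and none in KD or OE. The peak at OR51V1, chr11:5200473-5200884, reached over its annotated start. OR5I1 had a second peak in KD alone, 6482 bp away, with a strict site. By place, 23 of the 50 loci were intergenic, 16 lay in introns, 7 in non-coding exons and 4 in coding exons, the fourth of which was an exon of MMP26.

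Class I and class II genes differed most in KD and OE. Class I windows held 12 CTCF peaks for CT, 19 for KD and 15 for OE. Class II windows, which cover 2.12 of the 3.12 Mb, held 18, 9 and 8. Relative to other genes the class I ratio was 0.817 (0.421 to 1.43) in CT, 1.10 (0.657 to 1.72) in KD and 0.860 (0.480 to 1.43) in OE. For class II it was 0.579 (0.342 to 0.920), 0.245 (0.112 to 0.467) and 0.217 (0.0933 to 0.428). The intervals of the classes did not overlap in KD and OE, and they overlapped in CT. In KD and OE the interval of class I included a ratio of 1 and that of class II lay below it. At least 1 CTCF peak was found for 23 of 55 class I genes (41.8%, 28.7 to 55.9) and 21 of 117 class II genes (17.9%, 11.5 to 26.1). Strict sites were as dense in one class as in the other, with 43.9 and 42.9 per Mb, and GC was 38.1% and 37.2%. Of the 10 loci in KD and OE alone 8 were in class I windows, and of the 19 loci in CT alone 13 were in class II windows. Among families, OR51 had a CTCF peak at 12 of 22 genes (54.5%, 32.2 to 75.6), OR52 at 8 of 27 (29.6%), OR5 at 7 of 35 and OR8 at 3 of 23 (13%). None of the 5 OR6 genes and neither OR1 gene had one.

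By cluster, CTCF peaks in CT, KD and OE numbered 14, 19 and 15 in cluster 1, which holds the class I genes and 12 of class II. Cluster 4 had 6, 3 and 1, and 7 of its 51 genes had any (13.7%, 5.70 to 26.3). Clusters 5 and 7 had 4, 2 and 3 and 4, 3 and 3. Cluster 2 had 1 in each, all at the locus of OR4S1, cluster 3 had 1 in CT at OR4C13, and OR2AT4 had none.

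OR52M1 had the most CTCF peaks of any receptor. Its window held 1 peak from CT, 3 from KD and 2 from OE. They formed the repeated locus above, a locus in KD and OE 5229 bp away and a locus in KD alone 5388 bp away, and both of the latter held strict sites. OR51V1 and OR51G1 followed with 2 peaks from CT and 1 each from KD and OE. OR51L1 had 2 peaks in KD and 1 in OE, and none in CT.

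The members beside the β-globin genes were looked at on either side, where CTCF sites bound in many cell types are known to flank the locus. On the side of HBB, OR51V1 had a CTCF locus in all 3 conditions 4104 bp from its coding exon with the site printed above. On the side of HBE1, the window of OR51B4 held a locus in KD and OE 9413 bp away, also with its site above, and the nearest CT peak was 58823 bp from the coding span. OR52A1 and OR51B2, the second receptor on each side, had no CTCF peak in their windows. The 2 sites point toward opposite strands, plus at OR51V1 and minus at OR51B4.

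The receptors nearest to a shared CTCF locus were OR4S1 at 746 bp, OR52M1, OR51V1, OR5B21 at 5.66 kb, OR5A2 at 6.95 kb and OR52A5 at 7.33 kb. OR51M1 at 8.37 kb, OR10D3 at 8.96 kb and OR51G1 at 9.95 kb also lay within the window, together with OR5M11. OR52N2 and OR51A4, both at 11.6 kb, were just outside. These distances are from the coding span to the CT peak of the locus.

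H3K4me3 was scarce at OR genes. Their windows held 17 peaks in CT, 5.44 per Mb against 33.4, a ratio of 0.163 (0.0948 to 0.262). In KD they held 12, 3.84 per Mb against 35.6, a ratio of 0.108 (0.0556 to 0.189). By gene the mark reached 17 receptors in CT (9.88%, 5.86 to 15.4) and 11 in KD (6.4%, 3.24 to 11.2), against 81.0% and 82.9% of other genes and 71.8% and 72.9% of all. The peaks were also narrower, with a median of 276 bp against 635 bp around other genes in CT and 324 bp against 612 bp in KD. A peak lay over the annotated start of 3 receptors in CT and the same 3 in KD (1.74%, 0.361 to 5.01), where 36.7% and 38.3% of all genes had one. For other genes the shares of 41.9% and 43.8% show that the mark was captured at starts.

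These 3 receptors were OR51D1, OR52N2 and OR5A2. At OR51D1 the peak was the third longest of the receptors, 761 bp in CT and 815 bp in KD, and it lay over the CTCF site printed above for KD and OE. At OR5A2 it measured 419 bp in CT and 325 bp in KD. OR52N2 starts outside its own window, 11.4 kb before the coding exon, and its RefSeq promoter (chr11:5808674-5808973, 55.3% GC) was overlapped by CTCF peaks of CT, KD and OE and by H3K4me3 peaks of CT and KD. It is among the 117 genes with no peak within 10 kb of the coding span. A RefSeq promoter was at hand for 133 of the 172 genes, and 4 were overlapped by a peak of any list, where 61.5% of the 936 promoters of protein-coding genes of the chromosome were. The others were OR5A2 with H3K4me3, and OR51V1 and OR10A4 with CTCF in CT.

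The longest H3K4me3 peak was in the window of OR2D3, 1932 bp in CT and 1861 bp in KD, over the start of ZNF215, a zinc finger gene. At OR52B2 it measured 832 bp in CT and 946 bp in KD with 94.1% and 92.4% of repeated bases. OR5F1 had 452 bp, OR51A2 450 bp and OR8J2 250 bp in CT, and these 3 had no H3K4me3 base in KD. OR51Q1 had 436 bp in CT and 558 bp in KD within its window, OR5AK2 423 and 322 bp, and OR52K1 311 and 591 bp. In the coding exon itself, OR51T1 had a peak of 240 bp in CT and none in KD, where 51.8% of all coding spans were overlapped by the mark. OR10D3 and OR2AT4 had it in KD alone, with 288 and 223 bp, and at OR10D3 it lay over the shared CTCF site.

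Between CT and KD 9 of 17 H3K4me3 peaks were kept (52.9%, 27.8 to 77.0), where 87.3% were in all gene windows, and 9 of 12 KD peaks were found in CT (75%), where 82.5% were. By gene, 9 receptors had the mark in both, 8 in CT alone and 2 in KD alone. All protein-coding genes with it in CT and not in KD made up 1.14%, and those with the opposite 2.28%. The receptors that had the mark in CT alone were 8 of the 15 genes of the chromosome with that pattern. A gene has that pattern only if no KD peak lies anywhere in its window, and other genes have larger windows. The count of genes therefore does not give the share of peaks without a counterpart. Counted by peak, the share of CT peaks kept in KD was lower in OR windows (52.9%, 27.8 to 77.0) than in all gene windows (87.3%).

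For H3K9me3 the intervals of the density ratio included 1 and were wide, so that neither a lower nor a higher density near OR genes was shown. With 25 kb on each side the CT ratio was 1.51 (0.983 to 2.23), and the values below are for 10 kb. OR windows held 10 peaks in CT, 3.20 per Mb against 3.42, a ratio of 0.935 (0.442 to 1.75), and 6 in KD, 1.92 per Mb against 1.45, a ratio of 1.32 (0.472 to 2.99). By gene, 9 receptors (5.23%) had the mark in CT and 6 (3.49%) in KD, against 16.1% and 7.44% of all genes. A peak was kept in KD at 3 of 10 CT peaks, where 17.1% were kept in all gene windows, and 3 of 6 KD peaks lay over a CT peak, where 39.6% did. The kept peaks were at OR52M1, OR51Q1 and OR5M11. All were fully repeated and lay over CTCF peaks, of CT, KD and OE at OR52M1 and OR5M11 and of KD at OR51Q1. By gene 6 receptors had it in CT alone and 3 in KD alone, where 11.7% and 3.04% of all genes did.

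Repeated bases made up 71.2% of the H3K9me3 peaks of CT in OR windows and 100% of those of KD, against 52.8% and 66.5% around other genes. Without the locus at OR5M11, which the input shares, 11 receptors had an H3K9me3 peak. OR51T1, OR8U3 and OR5AN1 in CT had peaks with no repeated base. OR51B6 had 2 peaks in CT, and OR51G1 and OR10G6 1 each, all fully repeated. OR4C46, OR5F1 and OR8G1 had 1 in KD alone, also fully repeated, the last of which was named after its values were seen. The peaks at OR51G1, OR5F1 and OR8G1 and 1 of the 2 at OR51B6 lay over a CTCF peak of CT. Those at OR10G6 and OR4C46 lay over none. Beside the locus at OR5M11 no H3K27me3 peak lay in any OR window, where 2.66% of all genes had one in CT and 1.67% in KD. Without that locus the count was 0 of 172 genes, whose interval reaches 2.12%. The shares of all genes keep the peaks that overlap the input. Around other genes these were 7 of 75 H3K27me3 peaks in CT and 8 of 20 in KD.

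Other genes that lie between the receptors had more peaks than the receptors did. The 70 such genes, which include the 6 OR genes whose symbol ends in P, had a CTCF peak at 21 (30.0%) for CT. For KD it was 36 (51.4%) and for OE 37 (52.9%), and H3K4me3 reached 43 (61.4%) in CT. Set against their windows alone, the OR ratio was 0.626 (0.363 to 1.08) for CTCF in CT, 0.435 (0.258 to 0.725) in KD, 0.366 (0.208 to 0.631) in OE and 0.194 (0.105 to 0.341) for H3K4me3 in CT. For CTCF in KD and OE and for H3K4me3 the density of the receptors was lower than that of these genes in the same stretches of the chromosome. The windows of the 70 genes had 41.3% GC against 37.5% in OR windows, and the part of this in the ratios was not tested. On repeat-masked reads OR windows held 23 CTCF peaks for CT, and 10 of them held a site, as did all 15 of KD and all 12 of OE. Around other genes 67.2%, 93.6% and 93.4% of such peaks held one.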

How the data were processed

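ChIP-seq libraries of HEK293T cells were analysed as 10 samples, 1 per antibody and condition. By the study's methods and the submitters' processing notes, the authors mapped reads to hg38 with Bowtie2, kept the best-scoring alignment, called peaks with MACS2 and compared lists with bedtools (versions not given in the sources used here). The deposited values are peak positions in bp with no other unit. The p thresholds in the labels (0.0025 for CTCF in CT and KD, 0.005 for OE, 0.001 for marks, input and repeat-masked lists) differ from the 0.005 of the methods for unmasked reads. The labels and methods give the H3K9me3 and H3K27me3 antibodies the other way round, and lists were used by their titles. Starts were read as counted from 1, since 12 peaks start at 1, 0 at 0, and the narrowest unmasked CTCF peak then measures the stated 200 bp. Of 405081 peaks 405074 lay within the reference, and 6 of 19 lists, the authors' exclusive peaks, were not used. Unmasked lists held between 2676 (input) and 81932 peaks (H3K4me3 in KD).

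Windows were the coding span of the Ensembl canonical transcript (GENCODE release 44) with 10 kb on each side. An overlap of at least 1 bp put a peak in a window, OR windows first. Densities were divided and given the interval that is exact for the sum of both counts, and shares were given Clopper-Pearson intervals. The CTCF matrix was learned over 8 rounds from 12859 repeat-masked peaks, and sites were taken at p below 0.0001, strict ones at p below 1e-05. Interval and site functions were tested on simulated data. Python 3.11.15, numpy 2.4.6, pandas 2.3.3, scipy 1.17.1, numba 0.67.0, pysam 0.24.0 and matplotlib 3.10.9 were used. Named were receptors next to the globin genes, at cluster ends, nearest to shared CTCF peaks, with most H3K4me3 bases in CT, with peaks over the coding span, with most CTCF peaks, with H3K9me3 free of input, and with a site in 1 condition only; loci and other genes were chosen after their values were seen. The members and lists were chosen with earlier results of these data known. Windows, flanks, overlaps, input, site rules and comparison genes were varied.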

Additional observations from a re-analysis of the deposited data

How the results depend on the processing

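No paired analysis was possible because each condition has 1 library per antibody, and no replicate could be left out. With the coding span alone, 3 CTCF peaks in CT gave a density ratio of 1.41 (0.291 to 4.15), above 1 where the 10 kb windows gave 0.655; the same setting gave 0 for CTCF in KD and OE, H3K4me3 in KD, and H3K9me3 and H3K27me3 in both conditions, and the cause was not tested. With a flank of 5 kb the CTCF ratio was 0.292 in KD and 0.257 in OE, and that of H3K27me3 was 0 in both conditions. H3K4me3 gave 0.210 in KD with 25 kb and 0.0288 in CT among the 20000 widest peaks. With class I alone, a split chosen after seeing the data, the CTCF ratio was 1.10 in KD, on the other side of 1, and 0.860 in OE, that of H3K4me3 in CT was 0.299, and that of H3K27me3 was 0 in both conditions. With class II alone CTCF gave 0.245 in KD and 0.217 in OE. Without input peaks H3K27me3 gave 0. The share of OR genes with a peak follows the flank, and shares of other genes were not counted at 5 or 25 kb. At 5 kb it was 8.72%, 5.23% and 4.65% for CTCF in CT, KD and OE, 4.07% and 2.91% for H3K4me3 in CT and KD, 1.74% for H3K9me3 in CT and 0% for H3K27me3. At 25 kb it was 40.1%, 34.9% and 34.9% for CTCF, 26.7% and 22.1% for H3K4me3, and 21.5% and 8.72% for H3K9me3. Without input peaks it was 0% for H3K27me3. On repeat-masked lists 66.7% of OE peaks were found in CT, and with 25 kb 77.5% of H3K4me3 peaks of CT were found in KD. Repeated bases made up 12.8% of OR windows when a 24-mer had to occur 100 times. The other alternatives, 97 of 120 density ratios and 12 of 12 shares with a site among them, stayed within the interval of the value reported. For H3K9me3 and H3K27me3 these intervals were wide, as 0.0239 to 6.19 for H3K27me3 in KD, so that staying within them shows little. The interval of the CTCF ratio itself included 1 for CT with 5 kb (0.374 to 1.04), among the 20000 widest peaks (0.424 to 1.19) and on repeat-masked lists (0.443 to 1.07), for KD among the widest peaks (0.345 to 1.03), and where the comparison was with other genes of the same GC (CT and KD) or between receptors (CT). Counts were not adjusted for depth, and the number of peaks in OR windows limits every interval.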

Other observations

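A list of 17 genes tied to olfaction was described with the same windows. OMP and CNGA4 lie on chromosome 11, CNGA4 between receptors. LHX2, LDB1, EBF1, KDM1A, LBR and CBX5 in the list are not signalling genes. Of the 17 genes 11 had a CTCF peak for CT, 14 for KD and 13 for OE. H3K4me3 reached 14 in CT and 14 in KD, and H3K9me3 3 in CT and 0 in KD. Shares of all chromosome 11 genes were 47.2%, 56.8% and 55.9% for CTCF, 71.8% and 72.9% for H3K4me3, and 16.1% and 7.44% for H3K9me3. OMP, the marker protein of mature olfactory neurons, had 1 CTCF peak in KD and no other. RTP1, which carries receptors to the cell surface, had no peak of any list, and its paralogue RTP2 had 1 CTCF peak in KD and 1 in OE. GNAL, the olfactory G protein subunit, had 6 H3K4me3 peaks in CT and 8 in KD. EBF1, a transcription factor of olfactory and B cells, had 27 in each. Their windows differ in length, so that these counts are not comparable between genes. Since only OMP and CNGA4 of the 17 lie on chromosome 11, the shares of its genes are not a matched background for the list.

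Other tandem families of chromosome 11 were counted as well. CTCF peaks reached 3 of 16 MS4A genes in CT, 4 in KD and 6 in OE. CTCF peaks also reached 3, 6 and 6 of 11 KRTAP5 genes, which encode hair keratin-associated proteins. For 10 MMP genes, which encode matrix metalloproteinases, the counts were 3, 6 and 3. In CT the MS4A, KRTAP5 and MMP windows held 6.08, 18.5 and 12.8 CTCF peaks per Mb, where OR windows held 9.60. H3K4me3 in CT reached 3 genes in each of these 3 families, with 6.08 peaks per Mb for MS4A, 18.5 for KRTAP5 and 9.60 for MMP genes. OR windows held 5.44 per Mb. A CTCF density in CT below that of the receptors was thus seen for MS4A genes, and not for KRTAP5 or MMP genes. The H3K4me3 densities of all 3 families lay above that of the receptors and below the 33.4 per Mb of other windows. Of 10 TRIM genes between receptors 3 had CTCF in CT, 5 in KD and 5 in OE, and 7 had H3K4me3 in CT.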
